A study of Mus musculus with 6 samples.

Results

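Metalloproteinases of the Mmp, Adam and Adamts families, the related Adamtsl proteins and the tissue inhibitors of metalloproteinases (Timp) were described in whole adrenal glands of mice that lacked or kept the Hippo kinases MST1 and MST2 in steroid-producing cells. Members were all genes named Mmp, Adam, Adamts, Adamtsl or Timp followed by their number, each taken from the array's annotation and represented by 1 probe set. This gave 80 genes of the 19505 named on the array, with 21 Mmp, 32 Adam, 18 Adamts, 5 Adamtsl and 4 Timp genes. Glands came from 3 control and 3 mutant females, all aged 2 months, with 1 array per animal. Controls carried homozygous floxed Mst1 and Mst2 alleles (Mst1flox/flox;Mst2flox/flox), and mutants carried the same alleles with Nr5a1-cre, whose promoter drives Cre recombinase in steroid-producing cells. Controls had no Cre, so effects of Cre itself and of kinase loss cannot be told apart. Cells of the capsule, vessels, medulla and blood in the same gland do not as a rule use that promoter. Values are the authors' deposited log2 signals, so a difference of 1 is a doubling, and every change is mutant minus control.

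Metalloproteinases cut proteins with a zinc ion held in the active site. Matrix metalloproteinases (MMPs) are made as inactive precursors and cut collagens, basement membrane and other matrix proteins, ADAM proteins sit in the cell membrane and release the outer parts of other membrane proteins, and ADAMTS proteins are secreted and cut proteoglycans and procollagens. ADAMTSL proteins resemble ADAMTS proteins but have no protease domain. TIMPs bind the active site and block it, and TIMP2 also joins the membrane enzyme MMP14 in a complex that activates the precursor of MMP2. In the adrenal such enzymes act on the matrix of the capsule, of the vessel network and around the steroid-producing cells.

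Promoter sequences show what a part of the family shares beyond its names. They were taken from RefSeq (build GRCm38.p6) for the 49 members that matched, with 54 windows of 250 bases upstream of an annotated start. Mmp2 had no window, so its promoter was not searched. The windows were searched on both strands for TGANTCA, with N any base, a loose form of the AP-1 site TGAGTCA or TGACTCA. They were also searched for GGAATG, the core site of the TEAD factors through which YAP and TAZ act. The last motifs were CAAGGTCA, a site of SF-1 (the protein of Nr5a1), and the GC box GGGCGG. No motif contains another, although matches may overlap by a few bases. The loose AP-1 form stood in 12 of the 54 windows (22.2%), against 6.75% of the 32851 windows of all genes. Of these 12 genes 8 were Mmp genes that lie side by side on chromosome 9, where 9 members form a cluster, and such neighbours arose by duplication and share sequence, so they are not independent cases. Their stretches are shown because the cluster has 1 proximal match of this form after another, from -35 to -95 counted from the start. Matched letters are in capitals, with 15 bases on each side. Mmp20, and outside the cluster Adam20 and Adam25, have A as the free base (TGAATCA), so they match the loose form only. Adam20 and Adam25 are neighbours on chromosome 8 with identical stretches around the match, so these genes are not independent cases either.

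Mmp10, chr9:7502264-7502300, plus strand: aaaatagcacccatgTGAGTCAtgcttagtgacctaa
Mmp12, chr9:7347315-7347351, plus strand: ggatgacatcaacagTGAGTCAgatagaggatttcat
Mmp13, chr9:7272464-7272500, plus strand: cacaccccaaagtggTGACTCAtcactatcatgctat
Mmp1a, chr9:7464053-7464089, plus strand: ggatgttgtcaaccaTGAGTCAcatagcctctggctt
Mmp1b, chr9:7388098-7388134, minus strand: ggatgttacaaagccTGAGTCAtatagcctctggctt
Mmp20, chr9:7628121-7628157, plus strand: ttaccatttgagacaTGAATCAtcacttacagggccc
Mmp3, chr9:7445761-7445797, plus strand: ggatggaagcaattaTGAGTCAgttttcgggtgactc
Mmp7, chr9:7692012-7692048, plus strand: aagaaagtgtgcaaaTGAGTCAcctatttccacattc

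The ninth gene of the cluster, Mmp8, the collagenase of neutrophils, had no such match in its window. All 9 cluster genes had mean signals between 2.53 and 7.32, where the array's 23 background probe sets lie, and such values cannot be told apart from background. Their means ran from 3.54 (Mmp1a) to 6.97 (Mmp12), and their changes from -0.42 (Mmp1b) to 0.48 (Mmp10), with 4 higher and 5 lower.

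TEAD letters stood in 3 of the 54 windows (5.56%), against 12.6% of all windows. They are printed because TEAD factors are the outlet of the pathway whose kinases were targeted, again with the match in capitals and either strand allowed (CATTCC is the reverse complement). The stretch of Timp1 is shorter because its match lies at the edge of the window. SF-1 letters stood in 1 window (1.85%, against 1.33%) and a GC box in 22 (40.7%, against 32.7%). A match is a description of letters and not a bound site, and a window without one says nothing about the factor.

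Adam19, chr11:46055937-46055972, plus strand: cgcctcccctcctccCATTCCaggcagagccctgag
Adamts13, chr2:26973351-26973386, plus strand: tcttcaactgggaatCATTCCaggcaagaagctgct
Timp1, chrX:20869916-20869939, plus strand: acaGGAATGcctttcttgtgagat

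None of these 3 genes had groups that stood apart, with changes of 0.17 for Adam19, -0.15 for Adamts13 and 0.30 for Timp1. The windows of Timp2 and Adam23 are shown because both genes separated the mutants from the controls in opposite directions, as described with their values. Capitals in the Timp2 window mark its GC box, at -37 from the start. Of the 4 motifs, 0 were found in the Adam23 window. Bases G and C made up 68.0% of the Timp2 window and 70.4% of the Adam23 window.

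Timp2, chr11:118355412-118355661, minus strand: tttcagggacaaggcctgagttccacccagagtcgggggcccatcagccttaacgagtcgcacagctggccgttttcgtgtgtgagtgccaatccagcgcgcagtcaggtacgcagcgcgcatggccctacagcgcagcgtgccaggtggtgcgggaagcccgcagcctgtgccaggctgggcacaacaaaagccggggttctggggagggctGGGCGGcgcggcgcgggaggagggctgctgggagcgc
Adam23, chr1:63445641-63445890, plus strand: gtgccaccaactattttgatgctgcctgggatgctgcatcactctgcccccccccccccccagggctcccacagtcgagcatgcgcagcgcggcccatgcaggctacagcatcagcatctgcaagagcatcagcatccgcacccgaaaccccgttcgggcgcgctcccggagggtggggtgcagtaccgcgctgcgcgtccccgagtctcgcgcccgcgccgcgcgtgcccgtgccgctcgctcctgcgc

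As a check of tissue, 6 cortex markers had signals between 16.99 and 18.71 and 5 medulla markers between 11.64 and 17.09 in every animal, whereas the 4 measured kidney markers lay between 3.23 and 4.73, within the background range. The targeted kinase gene Stk4 measured 8.32, 8.66 and 8.94 in controls and 8.14, 8.36 and 8.46 in mutants (log2 change -0.32, SE 0.19, limma adjusted p = 0.623). Whether its probes lie inside the deleted part is not known here, so it does not check the labels. Stk3, the gene of MST2, is not reported here. Over the 22206 probe sets tested, 16 passed an adjusted p of 0.05 in limma, or 0.0721% (12 higher in mutants, 0.054%, and 4 lower, 0.018%).

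Of the 80 members, 0 passed that threshold in limma. At an unadjusted p under 0.05 there were 12 of the 80, against 10.4% of all probe sets. The groups did not overlap for 14 members (17.5%), against 16.4% of all probe sets, a share near the background. Of these 14, mutants were higher for 10 and lower for 4, where 8.0% and 8.36% of all probe sets separated in these directions. With a change of at least 1.5-fold as well, 5 members remained (6.25%, against 3.79%): Mmp2, Timp2 and Adam18 with higher signals, and Adam23 and Adam4 with lower ones. Signals were higher in mutants for 48 members and lower for 32, with a median change of 0.09, beside a median of -0.01 and 48.0% higher over all probe sets. Most members were dim: the mean over all animals was within the background range for 63 and above it for 17. Of all 22206 probe sets, 12055 had means no higher than the upper end of that range, which lies above the array medians.

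**Figure D1:**
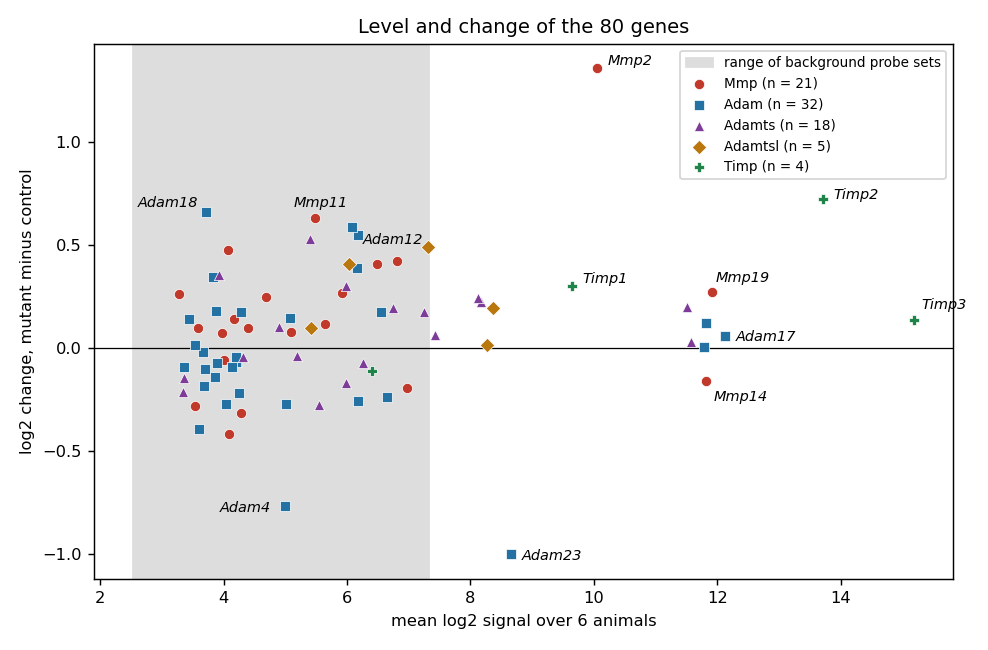
Each point is 1 of the 80 genes, with its mean log2 signal over 6 animals on the x axis and its log2 change, mutant minus control, on the y axis; the grey band from 2.53 to 7.32 covers the background probe sets. Outside the band Mmp2 (1.36), Timp2 (0.72) and Adam23 (-1.003) lie farthest from 0, while the rest of the bright members lie close to it.

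Among the Mmp genes, the gelatinase Mmp2, which cuts denatured collagen and basement membrane collagen, was higher in every mutant than in every control. Its log2 signal was 9.41, 9.13 and 9.55 in controls and 11.01, 10.99 and 10.16 in mutants. Mutants 1 and 2 stood close together, and mutant 3 lay between them and the controls without reaching the latter. The change was 1.36, or 2.56-fold (SE 0.25, 95% interval 0.78 to 1.93), and did not pass the test over all probe sets (limma adjusted p = 0.107). It passed when limma's prior variance followed signal level and was made robust to outlying genes (limma adjusted p = 0.0225, with 0.788% of all probe sets called), and over all alternatives the adjusted p ran from 0.0225 to 0.701. Mmp14, the membrane enzyme that activates MMP2, showed no such separation. It measured 11.96, 11.69 and 12.07 in controls and 11.59, 12.19 and 11.45 in mutants (log2 change -0.16, SE 0.22, 95% interval -0.67 to 0.34, limma adjusted p = 0.854). Mutant 2 was the highest of the 6 animals for Mmp14 and mutant 3 the lowest, so the groups overlapped, and the change was -0.39 without mutant 2 and -0.01 without mutant 3.

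Mmp19, a secreted enzyme of basement membrane turnover, was the other Mmp gene above the background range. It measured 11.81, 11.95 and 11.57 in controls and 11.72, 12.10 and 12.31 in mutants, with overlapping groups (log2 change 0.27, SE 0.19, limma adjusted p = 0.699). The Mmp19 change was 0.13 without mutant 3, 0.17 without control 3 and 0.43 without mutant 1, and 0.69 when the mean signal of fibroblast markers was added to the fit as a covariate. The remaining 18 Mmp genes had means within the background range. Mmp9, the second gelatinase and an enzyme of neutrophils and macrophages, was near the lower end of that range at 3.26, 3.34 and 2.82 in controls and 3.45, 3.53 and 3.22 in mutants (log2 change 0.26, SE 0.18, limma adjusted p = 0.688; 0.11 without control 3). Of the dim genes, Mmp23, an unusual member first made as a membrane protein, measured 6.76, 6.46 and 6.57 in controls and 7.15, 6.96 and 6.95 in mutants. Its groups did not overlap, and its change of 0.42 (SE 0.15, limma adjusted p = 0.394) did not pass. Mmp28, or epilysin (0.41, SE 0.16), and Mmp8 (0.25, SE 0.17) also had higher mutants without overlap, and the collagenase-related Mmp1b had lower ones (-0.42, SE 0.14). Groups thus separated for 5 of the 21 Mmp genes (23.8%, against 16.4% of all probe sets). With at least 1.5-fold as well, Mmp2 alone remained (4.76%, against 3.79%). Across the family 15 were higher and 6 lower, with a median of 0.12, and without single animals that median lay between 0.102 and 0.225. By role, 4 of 5 membrane-anchored, 2 of 4 collagenase, 2 of 3 stromelysin and both gelatinase genes were higher. All 5 genes outside the named roles were higher too, whereas the matrilysin Mmp7 (-0.06) and the metalloelastase Mmp12 (-0.19) were lower. The 4 higher membrane-anchored genes were dim, with changes from 0.07 to 0.14, and the bright one, Mmp14, was the lower one. Family means per animal reached 5.65, 5.63 and 5.65 in controls and 5.72, 5.97 and 5.74 in mutants. These means mostly average dim genes.

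Of the inhibitors, Timp2 stood apart between groups. Timp2 measured 13.37, 13.09 and 13.59 in controls and 14.30, 14.07 and 13.84 in mutants. The lowest mutant exceeded the highest control by less than the range within either group. The change was 0.72, or 1.65-fold (SE 0.19, 95% interval 0.29 to 1.16), and did not pass (limma adjusted p = 0.257, and 0.067 to 0.879 over all alternatives). Timp3, which binds to the matrix and also blocks ADAM17, measured 15.11, 14.88 and 15.36 in controls and 15.32, 15.28 and 15.15 in mutants. All 3 mutants lay within the range of the controls (log2 change 0.14, SE 0.17, 95% interval -0.25 to 0.52, limma adjusted p = 0.836; 0.02 without control 2 and 0.26 without control 3). Timp1, a secreted inhibitor induced in injured and inflamed tissue, measured 9.78, 9.50 and 9.19 in controls and 9.51, 10.33 and 9.52 in mutants. Its change of 0.30 (SE 0.26, limma adjusted p = 0.756) was 0.025 without mutant 2 and 0.15 without control 3. Timp4, an inhibitor of restricted expression, was within the background range at 6.73, 5.998 and 6.65 in controls and 6.95, 5.93 and 6.15 in mutants (log2 change -0.11, SE 0.30, limma adjusted p = 0.932), and its sign turned without control 1 (0.021) or mutant 2 (0.092).

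**Figure D2:**
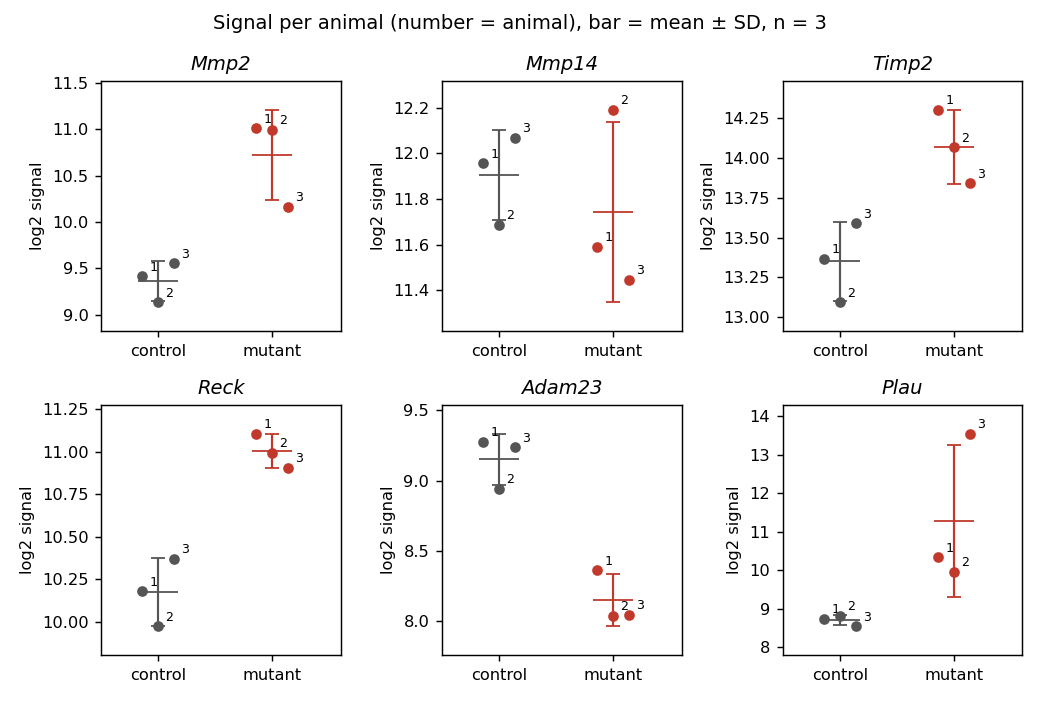
Log2 signal of 6 genes in each animal, with points numbered by animal, the horizontal bar at the group mean and the error bar at ± 1 SD (n = 3 per group). Controls and mutants are apart for Mmp2, Timp2, Reck, Adam23 and Plau and overlap for Mmp14, and mutant 3 lies far above both other mutants for Plau.

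Signals of connective tissue and vessel markers were higher beside those of Mmp2 and Timp2, and none of these markers passed the test. The 5 measured fibroblast markers were all higher in mutants, with list means of 10.545, 10.502 and 10.776 among controls and 11.64, 11.145 and 10.753 among mutants, which overlap. The mean over all animals was above the background range for 4 of them and within it for Col15a1. Mutant 1 was highest and mutant 3 lowest of the mutants in that list, in Timp2 and in Mmp2. The adipocyte list (12.198, 9.853 and 9.199 in mutants) and the leukocyte list (7.263, 7.117 and 6.962) had that order as well. The endothelial list ran the other way (13.123, 13.152 and 13.176), and mutant 2 was lowest in the smooth muscle and pericyte list (10.114, 9.783 and 9.88). What this order reflects was not tested. All 5 endothelial markers (means 12.50 to 12.77 in controls and 13.12 to 13.18 in mutants) and 4 of 6 smooth muscle and pericyte markers (9.36 to 9.65 and 9.78 to 10.11) were higher too. With the fibroblast mean as a covariate, the change was 0.81 for Mmp2 (SE 0.27, 95% interval 0.18 to 1.45) and 0.37 for Timp2 (SE 0.23, 95% interval -0.17 to 0.90). With that covariate 0 probe sets passed in all, and the fit has fewer degrees of freedom. In whole glands, more cells of a type and more RNA per cell cannot be told apart.

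**Figure D3:**
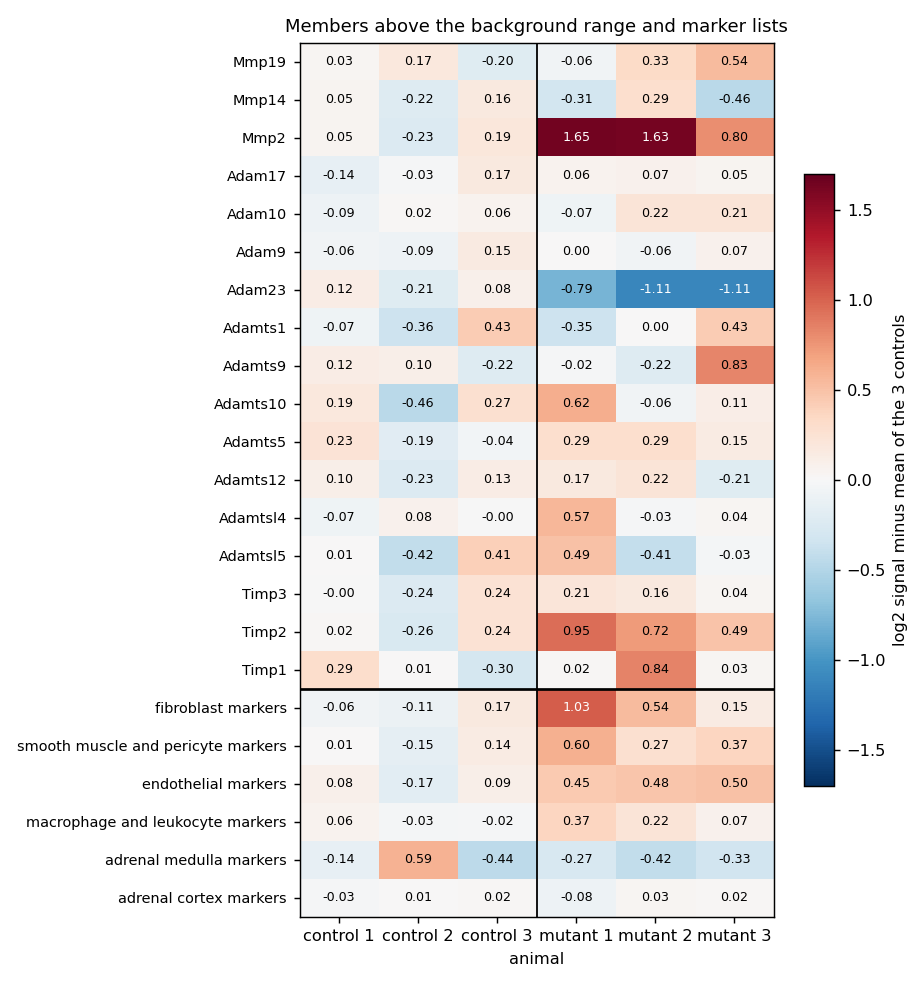
Colour and number give the log2 signal of each animal minus the mean of the 3 controls, for the 17 genes above the background range (upper block) and for 6 marker lists as list means (lower block). Mmp2 and Timp2 are positive in all 3 mutants, as are the smooth muscle, endothelial and leukocyte lists. Timp1, Timp3, Adam17, Adamts5 and the fibroblast list are positive in all 3 mutants too, although their groups overlap. Adam23 is negative in all 3, as is the medulla list, whose groups overlap. The cortex list stays close to 0.

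Among the Adam genes, Adam23 was lower in every mutant and had the smallest adjusted p of the 80 genes. ADAM23 has no protease activity and acts in cell adhesion, best known from neurons, where it binds LGI1. Its signal was 9.28, 8.94 and 9.24 in controls and 8.36, 8.04 and 8.05 in mutants. The gap between the lowest control and the highest mutant was larger than the range within either group. The change was -1.003, or 2.004-fold lower (SE 0.17, 95% interval -1.39 to -0.62, limma adjusted p = 0.0803). It passed among the brighter probe sets alone (limma adjusted p = 0.0353, with 0.829% of 11103 called) and with the trended, robust prior (0.0326), and over all alternatives the adjusted p ran from 0.0326 to 0.529. Leaving out single animals gave changes between -1.11 and -0.94. Medulla markers, which mark the neuron-like chromaffin cells, were all lower on average, with list means at 15.25, 15.98 and 14.95 among controls and 15.12, 14.97 and 15.07 among mutants. Control 2, the highest in that list, had the lowest Adam23 signal of the controls, and their part in the result was not tested. With the fibroblast mean as a covariate the change of Adam23 was -1.23 (SE 0.23).

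Both other non-catalytic neural members were within the background range. Adam22 measured 6.25, 6.58 and 6.09 in controls and 6.34, 5.74 and 6.07 in mutants, with overlap (log2 change -0.26, SE 0.20). Adam11 was higher in each mutant, at 5.82, 5.79 and 6.09 in controls and 6.23, 6.28 and 6.84 in mutants (log2 change 0.55, SE 0.20, limma adjusted p = 0.395).

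Of the 9 widely expressed sheddases 7 were higher and 2 lower, with a median of 0.12. Groups separated for 2 sheddases, both dim (22.2%, near the 16.4% of all probe sets). The 3 bright ones, Adam17, Adam10 and Adam9, had overlapping groups. Adam17, which releases TNF and ligands of the EGF receptor, measured 11.95, 12.07 and 12.27 in controls and 12.15, 12.17 and 12.15 in mutants (log2 change 0.06, SE 0.15, 95% interval -0.28 to 0.39, limma adjusted p = 0.93). Adam10, the sheddase that starts Notch cleavage, measured 11.68, 11.79 and 11.83 in controls and 11.70, 11.98 and 11.98 in mutants (log2 change 0.12, SE 0.15, 95% interval -0.22 to 0.47, limma adjusted p = 0.836). Adam9 had means of 11.78 in both groups (95% interval of the change -0.33 to 0.34). For these 3 genes the intervals leave out a change of 1.5-fold in either direction. Adam12, a sheddase of mesenchymal cells, was dim, at 5.71, 5.60 and 6.07 in controls and 6.48, 6.26 and 6.40 in mutants. Its mutants were all higher (log2 change 0.58, SE 0.17, limma adjusted p = 0.304). Adam15 was also higher without overlap (0.39, SE 0.17), and Adam19 overlapped (0.17, SE 0.15). The last 3 sheddases, Adam28 of lymphocytes (0.18, SE 0.26), Adam33 (-0.07, SE 0.16) and Adam8 of leukocytes (-0.04, SE 0.33), were within the background range and overlapped.

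The 20 Adam genes outside the sheddase and non-catalytic neural groups, most of them known from male germ cells or the epididymis, were all within the background range, with 6 higher and 14 lower. Adam18, a sperm surface protein, measured 3.51, 3.15 and 3.51 in controls and 3.81, 3.85 and 4.48 in mutants (log2 change 0.66, SE 0.22, limma adjusted p = 0.356). Adam4, a gene of testis, measured 4.98, 5.01 and 6.11 in controls and 4.85, 4.66 and 4.29 in mutants (log2 change -0.77, SE 0.31, limma adjusted p = 0.448). Without control 3 the Adam4 change was -0.40. Near-identical neighbours such as Adam20 and Adam25 may share probes, and their values are uncertain for that reason. The whole Adam family had a median of -0.06, with 14 higher and 18 lower, and means per animal at 5.36, 5.32 and 5.36 for controls and 5.32, 5.26 and 5.39 for mutants.

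Among the 18 Adamts genes the groups overlapped for every member, where 16.4% of all probe sets separated. In limma 0 had an unadjusted p under 0.05, against 10.4% of all probe sets. Both shares amount to few genes in a family of this size. Adamts1, a versican-cleaving enzyme known from the ovulating follicle, measured 11.49, 11.20 and 11.99 in controls and 11.21, 11.56 and 11.99 in mutants (log2 change 0.03, SE 0.26, 95% interval -0.57 to 0.62, limma adjusted p = 0.984). Its animals of 1 group were as far apart as those of different groups, and its interval reaches past a 1.5-fold higher signal. Adamts9, another proteoglycanase, measured 11.52, 11.50 and 11.18 in controls and 11.38, 11.18 and 12.23 in mutants. Mutant 3 alone was high, and the change of 0.20 (SE 0.27, limma adjusted p = 0.854) was -0.12 without it. The aggrecanase Adamts5, whose gene neighbours that of Adamts1, had a change of 0.24 (SE 0.16), with a mutant mean of 8.24 and a control mean of 7.996, and 0.15 without control 2. Adamts10, a fibrillin-associated member, had a change of 0.22 (SE 0.25).

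The second aggrecanase, Adamts4, was dim and highest in mutant 3, with 5.38, 5.27 and 4.77 in controls and 5.34, 5.46 and 6.22 in mutants (log2 change 0.53, SE 0.27, limma adjusted p = 0.542; 0.26 without mutant 3 and 0.34 without control 3). Adamts8 had a change of 0.35 (SE 0.24) within the background range, which was 0.08 without control 1 and 0.56 without control 3. Of the 7 proteoglycanases 6 were higher, as were 1 of 2 procollagen-processing genes and both COMP-cleaving genes. The von Willebrand factor protease Adamts13 differed by -0.15. Over the family 11 were higher and 7 lower, with a median of 0.08.

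All 5 Adamtsl genes were higher on average, with a median of 0.19, and 0 passed. That median was 0.027 without mutant 1 and 0.316 without control 1. Adamtsl2, which binds fibrillin and latent TGF-beta binding protein, measured 5.75, 5.90 and 5.83 in controls and 6.19, 6.30 and 6.20 in mutants. Its animals varied little within either group (SD 0.07 and 0.06), the groups did not overlap, and the change was 0.41 (SE 0.14, limma adjusted p = 0.365) at a level within the background range. Adamtsl1, or punctin, measured 6.89, 6.82 and 7.498 in controls and 7.502, 7.71 and 7.45 in mutants (log2 change 0.49, SE 0.21, limma adjusted p = 0.473). Control 3 lay among the mutants. Adamtsl4, which acts on fibrillin of the eye's suspensory fibres, had a change of 0.19 (SE 0.19) set by mutant 1, without which it was 0.0051, and Adamtsl5 a change of 0.02 (SE 0.28).

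Activators and regulators of these enzymes were counted from a list of 20 genes, of which 19 were measured. Of these, 10 were higher and 9 lower, with a median of 0.02, and 0 passed. Reck, a membrane-anchored protein that inhibits MMP2, MMP9 and MMP14, measured 10.18, 9.98 and 10.37 in controls and 11.11, 10.995 and 10.91 in mutants. Each mutant exceeded each control, by a change of 0.83 or 1.77-fold (SE 0.16, 95% interval 0.46 to 1.19, limma adjusted p = 0.121, and 0.0329 to 0.714 over all alternatives). Plau, the urokinase that generates plasmin, a protease able to activate MMP precursors, measured 8.74, 8.82 and 8.55 in controls and 10.33, 9.96 and 13.55 in mutants. Mutant 3 lay far above the other mutants, and the change was 2.57 (SE 0.80, limma adjusted p = 0.33) and 1.44 without that animal (SE 0.19, limma adjusted p = 0.0724). A2m, a secreted trap of proteases, was lower, at 10.33, 10.13 and 10.70 in controls and 7.69, 9.75 and 9.23 in mutants (log2 change -1.50, SE 0.465, limma adjusted p = 0.326). Without mutant 1 the A2m change was -0.90. Rhbdf1, which helps ADAM17 to the cell surface, differed by 0.34 (SE 0.20) with overlap (0.21 without control 2 and 0.55 without control 3). With the fibroblast covariate the changes of Plau and A2m were 4.40 and -0.66.

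Matrix substrates were higher for 12 of the 14 measured genes, with a median of 0.40, and 0 passed. The mean was within the background range for 7 of the 14. Groups separated for 4 (28.6%, against 16.4% of all probe sets), with 3 higher and 1 lower. Acan, the proteoglycan aggrecan, measured 6.12, 5.52 and 5.76 in controls and 6.43, 6.54 and 6.78 in mutants, within the background range (log2 change 0.78, SE 0.19, limma adjusted p = 0.227). Bcan, the related proteoglycan brevican, was lower, at 11.11, 10.59 and 10.86 in controls and 10.48, 9.91 and 10.19 in mutants (log2 change -0.66, SE 0.20, limma adjusted p = 0.323). Fn1, fibronectin, measured 7.51, 7.36 and 8.27 in controls and 9.76, 9.004 and 8.43 in mutants (log2 change 1.35, SE 0.36, limma adjusted p = 0.257). Mutant 3 lay close above control 3. Col1a2, a chain of type I collagen, overlapped (0.77, SE 0.29). The substrates' list means, 7.27, 7.17 and 7.49 among controls and 7.88, 7.62 and 7.57 among mutants, stood in the same order among the mutants as the fibroblast list. With the fibroblast mean as a covariate the change was 0.39 for Fn1 and 0.10 for Col1a2, but 0.98 for Acan and -0.86 for Bcan.

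Of 8 measured ligands that ADAM proteins release, 5 were higher and 3 lower, with a median of 0.10, and 0 passed. Hbegf, a ligand of the EGF receptor, measured 5.85, 5.32 and 5.54 in controls and 5.86, 6.11 and 6.56 in mutants (log2 change 0.61, SE 0.22, limma adjusted p = 0.398). Mutant 1 lay barely above control 1. Btc, Egf and Nrg1 had changes of 0.34, 0.22 and -0.29, with overlap. They were 0.11 for Btc without control 1, 0.14 for Egf without control 2 and -0.18 for Nrg1 without mutant 3. All 8 ligands had means within the background range.

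**Figure D4:**
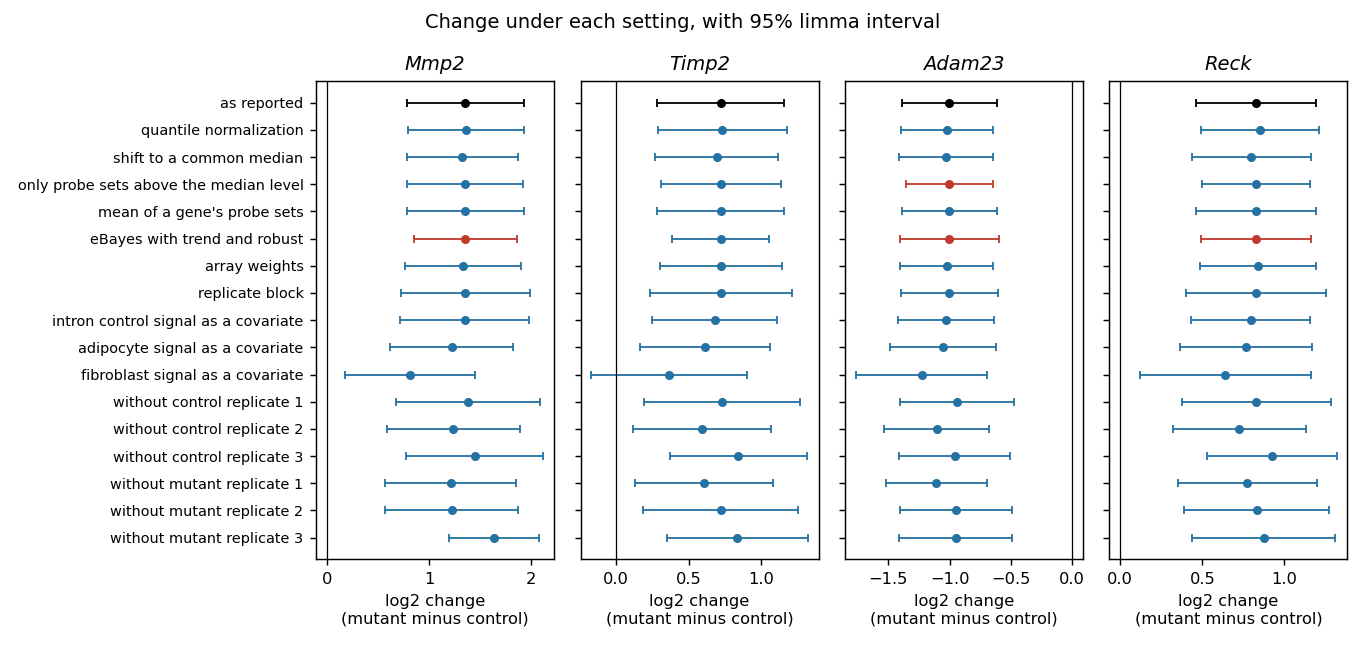
Log2 change, mutant minus control, of 4 genes as reported (top, black) and under each alternative setting, with the 95% limma interval; red marks settings in which the gene passed an adjusted p of 0.05. Mmp2 and Reck passed in 1 setting, Adam23 in 2 and Timp2 in 0, and the fibroblast covariate gives the smallest changes of Mmp2, Timp2 and Reck.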

How the data were processed

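RNA of whole adrenal glands was measured on Affymetrix whole-transcript arrays. The authors deposited 1 log2 signal per probe set and animal. Transcriptome Analysis Console 4.0 made them, per the submitters' processing notes. How background and array differences were corrected is not given in the sources at hand. Array medians lay between 6.76 and 6.83, and values were used as deposited. After 6640 control probe sets were removed, 22206 remained, of which 19572 had 1 gene symbol. Each member had 1 probe set.

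The difference between groups came from limma 3.58.1 (lmFit, eBayes; R 4.3.3) over all 6 arrays, with two-sided p-values adjusted by Benjamini-Hochberg over all 22206 and a threshold of 0.05. The fit was tested on simulated data. SE and 95% intervals are limma's. Families, lists and members were chosen with earlier results of these data known, and lists are described without set tests. Named were 10 fixed members (the Timp genes, Mmp2, Mmp9, Mmp14, Adam10, Adam17 and Adamts1), members past the threshold, those separating the groups by at least 1.5-fold, 3 of smallest p and 3 of highest signal per larger family, up to 4 of smallest p per pathway list, and Stk4. Others were named after their values were seen. Alternatives were other normalizations, filters, priors, weights, covariates and thresholds, the replicate block and each animal left out. Mean signals of intron control probe sets, a sign of RNA quality, lay at 5.47, 5.40 and 5.84 for controls and 5.73, 5.45 and 5.71 for mutants. List means of macrophage and leukocyte markers were 6.86 to 6.95 in controls and 6.96 to 7.26 in mutants. Those of ovary and oviduct markers were 5.48 to 5.64 and 5.14 to 5.74, with Gdf9 alone above the background range (mean 8.54). Those of adipocyte markers were 7.82 to 10.81 and 9.20 to 12.20. The small number of animals limits the precision.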

Additional observations from a re-analysis of the deposited data

How the results depend on the processing

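With 3 animals a group, no member passed as reported. The count of members past the threshold was 1 among probe sets above the median level (Adam23), 2 with the trended, robust prior (Mmp2 and Adam23), 1 at an adjusted p of 0.1, 2 at 0.2, and 0 without any single animal. The count over all probe sets, 16, was 38 with quantile normalization, 32 with a common median, 92 above the median level, 175 with the trended, robust prior, 48 with array weights, 8 with the intron covariate, 2 with the adipocyte covariate, 0 with the fibroblast covariate (smallest limma adjusted p 0.0912), 108 at 0.1, 293 at 0.2, and 1 to 15 without single animals; it was 1 without control 1, control 2 or control 3 and 6 without mutant 2. With the replicate number as a block it was 1. Deviations of same-numbered animals correlated at -0.09, 0.08 and -0.07, so no shared shift was seen. The labels state no pairing, and with 3 animals a group these correlations cannot exclude one. The block changed no call of a member, but no member was called as reported, so there was none to lose. With the block the limma adjusted p was 0.173 for Adam23 and 0.238 for Mmp2, against 0.0803 and 0.107 as reported.

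Above the median level the medians were 0.269 (Mmp), 0.032 (Adam) and 0.186 (Adamts), over the 5, 4 and 6 genes left. With the fibroblast covariate they were 0.229 (Mmp), 0.042 (Adam) and 0.01 (Adamtsl). Without single animals they ranged from 0.102 to 0.225 (Mmp), -0.095 to 0.035 (Adam), -0.028 to 0.095 (Adamts), 0.027 to 0.316 (Adamtsl) and 0.108 to 0.309 (Timp).

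Signs turned for genes with changes near 0. Adam9 was -0.024 with a common median, -0.023 with the intron, -0.021 with the adipocyte and -0.0059 with the fibroblast covariate, and -0.039 to 0.078 without single animals. Adamtsl5 was -0.01 with quantile normalization, -0.012 with a common median, -0.094, -0.169 and -0.464 with these covariates, and -0.22 to 0.23 without single animals. Adamts1 was -0.036 with the intron covariate. With the fibroblast covariate Adamts10 was -0.198, Adamtsl4 -0.124 and Timp3 -0.048. Without single animals Adam17 ranged from -0.014 to 0.143, Adamts1 from -0.17 to 0.24, Adamts10 from -0.0032 to 0.37, Adamts9 from -0.12 to 0.41 and Timp4 from -0.42 to 0.092. The cause was not tested. Of the 40 genes refitted, those chosen by the naming rule, no other turned its sign; genes named after their values were seen were not refitted one by one.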
